A study of Mus musculus with 25 samples.

Results

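Fgf5, Otx2, Pou3f1, Sox3, Zic2, Zic5 and Foxd3 are genes of the primed epiblast, chosen here by name and matched to their rows through the Ensembl identifier. They are 7 of the 48440 genes counted in the series. Pluripotent cells pass from a naive state, which resembles the epiblast before implantation, through a formative to a primed state that is competent to enter the germ layers. Fgf5 encodes a secreted fibroblast growth factor that is switched on during that transition, while the other members encode transcription factors that help to set up or hold the later states. β-catenin, the effector of Wnt signalling, is known to sustain the naive state in cultured mouse embryonic stem (ES) cells.

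RNA was measured by mcSCRB-seq, a method that tags each cDNA molecule with a unique molecular identifier (UMI), in the feeder-free mouse ES cell line E14, grown in serum and leukemia inhibitory factor. Unedited cells had 48 h with 0, 2.5, 5, 7.5 or 10 µM CHIR99021, an inhibitor of GSK3, the kinase that marks β-catenin for destruction, with 2 libraries at each dose. The other 15 libraries came from clones carrying 1 of 11 missense mutations on 1 allele of Ctnnb1, the gene for β-catenin, with no inhibitor named. They fall into the low (S45C, T41N, T41S), medium (S45F, S45P) and high (S37A, S37C, S37F, S37Y, T41A, T41I) categories of mutational effect score (MES) that the study names, with 3, 3 and 9 clones. MES comes from a reporter assay in other cells, but the study named the categories from a clustering of these same libraries by expression. A difference between categories, or its p-value, is thus not independent evidence of their separation or their order. Each clone is 1 library, was picked and expanded after selection, and no unedited clone was analysed here, so that mutation, editing and clonal origin cannot be told apart in a comparison of clones with unedited cells. Nothing says that the replicates were separate cultures, so p-values measure only the spread between these libraries, which may be technical.

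The libraries held 306157 to 2083398 counts, with a median of 1327802, and levels are given as CPM, the count of a gene scaled to a library total of 1000000. A count of 0 allows a level of up to 3 counts, which was 1.44 to 9.80 CPM depending on the library; this limit and all counting intervals cover counting error only. Mitochondrial genes took 0.485% to 1.46% of the counts in the unedited libraries and 1.53% to 2.52% in the clones, so the ranges did not overlap. Among the unedited cells, 4 libraries (0 µM replicate 2 and replicate 1 at 2.5, 5 and 10 µM) were at 0.485% to 0.562% and were also shallower, with 306157 to 940544 counts. The 6 core ES cell genes checked (Pou5f1, Sox2, Sall4, Lin28a, Dppa4, Tdgf1) summed to 1599 to 3321 CPM in every library, although Pou5f1 itself was listed at only 9.05 to 28.8 CPM. Axin2, a direct target of β-catenin, checked the labels: its mean rose from 14.8 CPM at 0 µM to 116 CPM at 10 µM, and every clone (22.6 CPM or more) exceeded both untreated libraries (15.8 CPM or less). It did not set low below medium clones: its mean was 34.4 CPM in low, 28.8 CPM in medium and 64.6 CPM in high clones. Ctnnb1 itself did not pass the test in any comparison.

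The edited residues lie in exon 3 of Ctnnb1, at chr9:120950602-120950643 on the plus strand of GRCm38. The stretch is shown because it holds the serine and threonine codons changed in the clones. It runs from codon 32 to codon 45, with the changed codons, 37, 41 and 45, in capitals.
Ctnnb1: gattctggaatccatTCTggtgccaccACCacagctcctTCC

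The members lie on 4 chromosomes of GRCm38: Fgf5 at chr5:98254184-98277030 (plus strand), Otx2 at chr14:48657677-48673819 (minus), Pou3f1 at chr4:124656807-124660655 (plus), Sox3 at chrX:60891366-60893430 (minus), Zic2 at chr14:122475435-122479852 (plus), Zic5 at chr14:122456795-122465677 (minus) and Foxd3 at chr4:99656299-99658622 (plus). Zic2 and Zic5 are neighbours on opposite strands, with starts 9758 bp apart. Otx2 overlaps the antisense gene Otx2os1 over 5112 bp; the strand setting of the counting is not given in the sources used here, and Otx2os1 had a mean of 0.0818 CPM.

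Promoter entries of RefSeq (GRCm38.p6) were matched for 4 of the 7 members. The windows of Otx2 and Foxd3 are shown because, among the members tested, Otx2 had the largest fitted fall at the lowest dose of CHIR99021 and Foxd3 the largest fitted excess of high clones over untreated cells. Each runs 5′ to 3′ along the gene's strand and ends at the base before the annotated start, at chr14:48667645-48667894 for Otx2, which starts from a promoter inside the longer gene span, and at chr4:99656049-99656298 for Foxd3. The TCF/LEF motif was searched as CTTTGAA and CTTTGAT on both strands and was in none of the windows of these 4 members, against 7.48% of 32851 windows of 250 bases over all genes. No match says only that these letters are not in these windows, and none are in capitals.
Otx2: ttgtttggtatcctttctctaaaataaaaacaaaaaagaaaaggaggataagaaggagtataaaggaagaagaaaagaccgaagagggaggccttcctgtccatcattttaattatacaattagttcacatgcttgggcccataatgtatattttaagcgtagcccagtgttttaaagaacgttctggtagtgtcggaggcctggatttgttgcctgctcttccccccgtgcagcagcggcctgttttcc
Foxd3: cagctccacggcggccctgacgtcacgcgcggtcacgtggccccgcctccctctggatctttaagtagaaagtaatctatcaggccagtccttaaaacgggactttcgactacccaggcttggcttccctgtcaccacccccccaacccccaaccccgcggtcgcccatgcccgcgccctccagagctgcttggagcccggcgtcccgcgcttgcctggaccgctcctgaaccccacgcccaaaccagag

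To ask how the primed genes follow graded inhibition of GSK3, their levels were compared over the 5 doses. Otx2, Pou3f1 and Zic5 were high in untreated cells and low under CHIR99021. Otx2 was all but lost at 2.5 µM, while Pou3f1 and Zic5 fell at 2.5 µM and again at 5 µM, with no steady fall above that. In any unedited library Fgf5, Sox3 and Zic2 held at most 9 counts and Foxd3 at most 14. Bulk RNA cannot tell fewer cells that use a gene from less RNA per cell, here or in any comparison that follows.

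Fgf5, the ligand, was barely detected in unedited cells. The untreated libraries held 2 counts and 1 count, both under the limit of 3, and the 8 treated libraries held 1 count in all. No change of Fgf5 with dose was detectable at this depth.

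Otx2, a homeobox factor that drives cells out of the naive state, stood at 17.9 and 19.1 CPM in the untreated libraries, from 33 and 18 counts. At 2.5 µM it stood at 1.44 and 0.762 CPM, at 5 µM at 0 and 0.960 CPM, at 7.5 µM at 0 in both libraries, and at 10 µM at 0 and 3.01 CPM. Both untreated libraries lay above all 8 treated ones, and 7 of these were at or under their counting limit. With dose as a factor, Otx2 fell by 4.05 on the log2 scale at 2.5 µM (SE 0.724, edgeR quasi-likelihood test, adjusted p = 0.000471) and was at -5.17 at 7.5 and 10 µM together (SE 0.666, adjusted p = 1.63e-07). All 4 counts at the top doses came from 10 µM replicate 2; without it the fit gave -7.48 (adjusted p = 1.18e-05), which is no bound because the other 3 libraries had no count. The 2.5 µM libraries held 2 counts against 51 untreated, a ratio of pooled levels of 18.4 with an exact counting interval of 4.84 to 156. Otx2 passed the filter on low counts only through its untreated libraries, and it was not tested in the slope on dose, whose filter needs more libraries over the limit.

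Pou3f1, a POU factor of the epiblast and early neural lineage also called Oct6, stood at 67.9 and 55.3 CPM untreated and at 27.3 and 37.4 CPM at 2.5 µM. It then stood at 13.2 and 9.60 CPM at 5 µM, at 16.7 and 18.4 CPM at 7.5 µM and at 13.1 and 11.3 CPM at 10 µM. The untreated libraries, the 2.5 µM libraries and the 3 higher doses formed 3 levels that did not overlap. The slope on dose was -0.27 per µM on the log2 scale (SE 0.0332, edgeR adjusted p = 1.18e-06), and at 7.5 and 10 µM Pou3f1 was 4.35-fold lower than in untreated cells (95% interval 3.20 to 5.90, adjusted p = 9.15e-10).

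Zic5, a zinc-finger factor, stood at 53.8 and 52.1 CPM untreated, at 23.0 and 31.3 CPM at 2.5 µM and at 18.1 and 21.6 CPM at 5 µM. It stood at 12.3 and 15.6 CPM at 7.5 µM and at 22.9 and 12.8 CPM at 10 µM. Both untreated libraries lay above all treated ones, and the 10 µM libraries spanned the range of the 5 µM libraries. The slope was -0.22 per µM (SE 0.0272, edgeR adjusted p = 1.35e-06), and the top doses were 3.64-fold lower than untreated cells (95% interval 2.65 to 4.99, adjusted p = 3.83e-08).

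Zic2, the neighbour of Zic5, held 9 and 5 counts in the untreated libraries (4.89 and 5.32 CPM) and 0 to 5 counts in each treated library (0 to 4.31 CPM). Both untreated libraries were above all treated ones, but Zic2 did not pass the filter, and without it the difference at the top doses had an adjusted p of 0.0653 by edgeR. Sox3, an X-linked SoxB1 factor, ranged from 3.26 to 9.57 CPM untreated and from 0 to 4.61 CPM under treatment, with overlap, and passed no filter in any comparison. Foxd3, a forkhead repressor that maintains the epiblast, ranged from 6.38 to 7.61 CPM untreated and from 2.305 to 10.7 CPM treated, and its change at the top doses was -0.99 on the log2 scale (SE 0.533, edgeR adjusted p = 0.224).

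In the slope on dose, Pou3f1 and Zic5 were the members tested and both fell; 6.63% of all 10033 genes tested fell. They were over the filter in all 10 libraries. With dose as a factor, Pou3f1 and Zic5 also fell at 7.5 and 10 µM, where 8.45% of 10674 genes fell, and at 2.5 µM, where 1.04% fell, while Foxd3 did not pass at either. Otx2 fell in both but is not counted with them, since its untreated libraries alone brought it into the test. The calls at 2.5 µM were less secure: Pou3f1 changed by -0.88 (adjusted p = 0.0222) and Zic5 by -0.89 (adjusted p = 0.0369). Each lost its call when any of several single libraries was left out, among them 0 µM replicate 1 (adjusted p = 0.381 and 0.274) and both 2.5 µM libraries, and Otx2 lost its call without 2.5 µM replicate 2 (-3.53, adjusted p = 0.0913). With libraries of low and high mitochondrial share fitted as separate blocks, the same number of members, 3, was called at 2.5 µM.

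**Figure D1:**
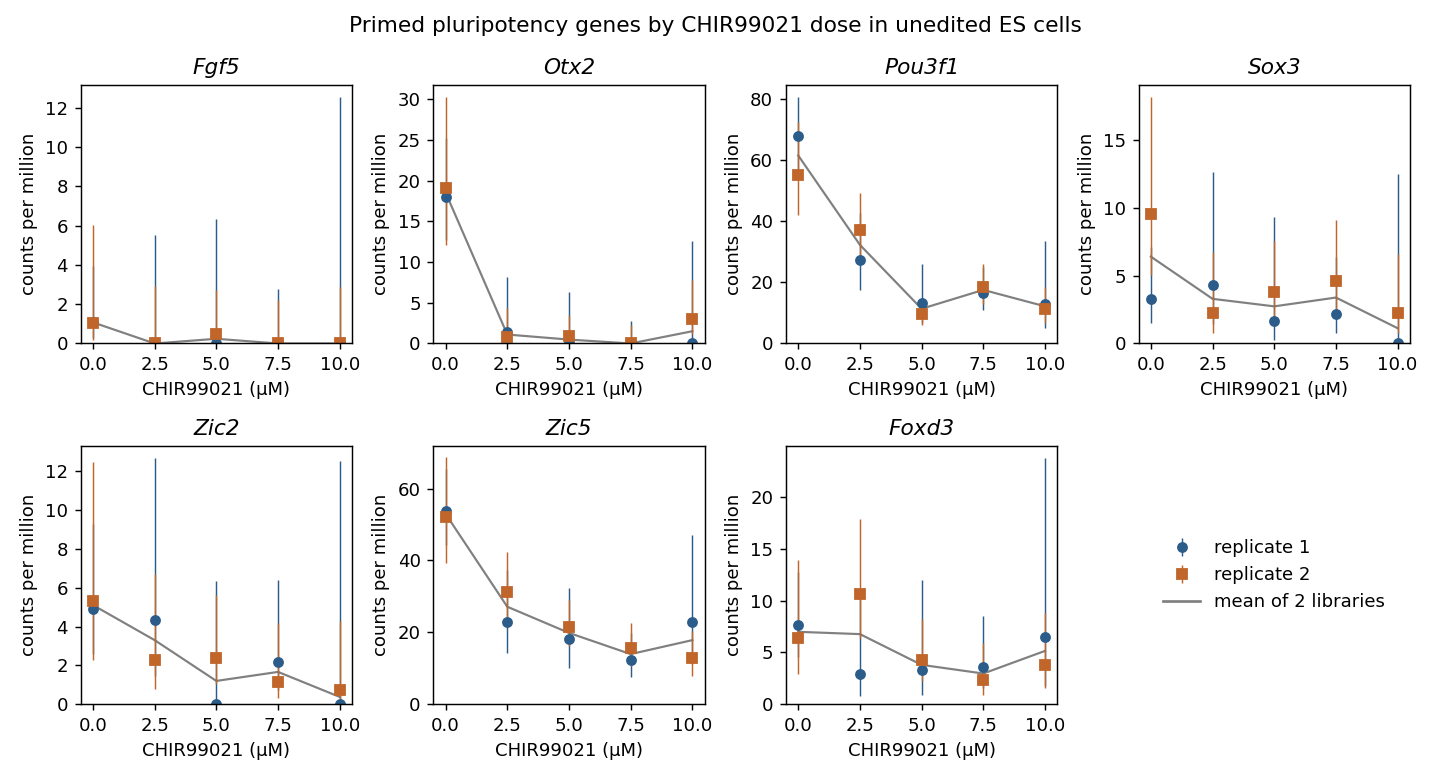
CPM of each member (y axis) against the dose of CHIR99021 in µM (x axis) in the 10 libraries of unedited cells, with 95% Wilson intervals of the counts as bars and the mean of the 2 libraries of a dose as a line. Otx2 dropped from 17.9 and 19.1 CPM to 1.44 CPM or less at 2.5 µM, whereas Pou3f1 and Zic5 declined over several doses and the points of the other panels lay at 10.7 CPM or less.

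To ask whether the strength of a Ctnnb1 mutation orders the same genes, the clones were compared by MES and by category. Since the categories were drawn with these libraries in view, separations and p-values between them are descriptive. Pou3f1 separated the categories most clearly: it was highest in the low clones and lowest in the high clones, with no overlap between any pair of categories. Fgf5 and Otx2 were also highest in low clones, Zic2 had no count in any low clone and was found in every medium and high clone, and Zic5 and Foxd3 spread widely within the high clones.

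Fgf5 stood at 7.54 CPM in the S45C clone, 6.05 CPM in the T41N clone and 10.2 CPM in the T41S clone, from 5, 3 and 18 counts. The medium clones ranged from 0.628 to 2.75 CPM, and the high clones from 0 through a median of 0.689 to 3.10 CPM. The 3 low clones lay above the other 12, of which 11 were at or under their counting limit. Fgf5 did not pass the filter in the clones; without a filter it was lower in high than in low clones by edgeR (-3.11 on the log2 scale, SE 0.625, adjusted p = 3.55e-05), in a fit where 8.93% of genes fell.

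Otx2 stood at 19.6 CPM in the S45C clone, 10.1 CPM in T41N and 6.21 CPM in T41S. The medium clones stood at 4.39 and 2.75 CPM (S45F) and 11.98 CPM (S45P), and the high clones ranged from 0 through a median of 4.19 to 6.14 CPM. The low clones lay just above the high ones, with 6.21 against 6.14 CPM at the nearest, and overlapped the medium ones. The change from low to high was -1.39 (SE 0.492, edgeR adjusted p = 0.0360), a call that was lost without the S45C clone (-0.84, adjusted p = 0.303), without T41N (-1.43, 0.0670), without S37A (-1.37, 0.0526) and with the clones of a mutation summed (-1.42, 0.0543).

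Pou3f1 stood at 149 CPM in the S45C clone, 101 CPM in T41N and 181 CPM in T41S. The medium clones stood at 35.8 and 25.7 CPM (S45F) and 83.9 CPM (S45P), and the high clones ranged from 5.60 through a median of 11.2 to 16.3 CPM. High clones were 12.4-fold lower than low clones (95% interval 8.61 to 17.9, edgeR adjusted p = 1.93e-09) and medium clones 3.27-fold lower (2.07 to 5.15, adjusted p = 0.00125). Along MES, Pou3f1 changed by -1.77 on the log2 scale per 10000 units (SE 0.132, adjusted p = 9.17e-08). The SD of log2(CPM + 1) was 0.334 between clones of the same mutation, over the 4 mutations with 2 clones, against 1.56 over all 15 clones. These mutations were S37F, S45F, T41A and T41I. The spread between clones of a low mutation was thus not measured.

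Zic2 had 0 counts in all 3 low clones, among 662881, 495616 and 1770304 counts, which over the group allows up to 1.02 CPM. Clone by clone, the limits were 4.53 CPM for S45C, 6.05 CPM for T41N and 1.69 CPM for T41S. The medium clones held 2 to 5 counts each (1.26 to 4.59 CPM), and the high clones ranged from 2.14 through a median of 5.39 to 12.6 CPM. The mean of the high clones, 6.39 CPM, was 6.24-fold the limit of the pooled low clones, and the difference passed the test (edgeR adjusted p = 0.00163). The pooled limit takes the 3 low clones as having 1 level. Of their separate limits, that of T41S alone lay below every high clone. Zic2 passed the filter through 4 high clones alone. Its slope on MES did not pass (1.01 per 10000 units, SE 0.393, adjusted p = 0.0693), although DESeq2 called it (1.39, adjusted p = 0.00637). Zic2 and Pou3f1 thus lay at opposite ends in the low clones, Zic2 without a count and Pou3f1 at its highest.

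Zic5 stood at 28.7 to 50.4 CPM in the low clones, 31.4 to 41.3 CPM in the medium clones and 13.3 to 72.1 CPM in the high clones, around a median of 40.1 CPM. The high clones covered the range of both other categories, and high differed from low by 0.13 (95% interval as a ratio 0.624 to 1.91, edgeR adjusted p = 0.846). Foxd3 stood at 42.2, 44.4 and 14.1 CPM in the S45C, T41N and T41S clones, at 27.0 to 47.9 CPM in the medium clones and at 24.0 to 78.5 CPM in the high clones, around a median of 62.4 CPM. High clones were 1.85-fold above low clones (95% interval 1.05 to 3.28), which missed the threshold (adjusted p = 0.0981) but passed without a filter (0.95 on the log2 scale, adjusted p = 0.00295) and without S37F clone H2 (1.02, adjusted p = 0.0395). Sox3 ranged from 0 to 5.65 CPM over all clones, with 0 in T41N, and was not tested.

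Pou3f1, Zic5 and Foxd3 were over the filter in 14 or all 15 clones, and of these Pou3f1 alone passed between high and low clones, where 16.6% of 10452 genes fell and 13.1% rose. Otx2 fell and Zic2 rose there, but neither is read against these shares: Zic2 entered the test through high clones alone, and Otx2 through 2 low clones and 1 medium clone. Between medium and low clones Pou3f1 was again the member that fell (7.29% of genes fell), and it was also the member that fell on MES (13% of 10145 genes fell). The median depth was 662881 counts in low, 1090055 in medium and 1345179 in high clones. The T41S clone held 1770304 counts and had the highest Pou3f1 and Fgf5 of all clones and no count of Zic2. With every library thinned to the smallest, Pou3f1 kept its fall between high and low clones, between medium and low clones and along MES. Fgf5, Otx2 and Zic2 were not tested between high and low clones after thinning. The part of depth in their differences was not tested.

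**Figure D2:**
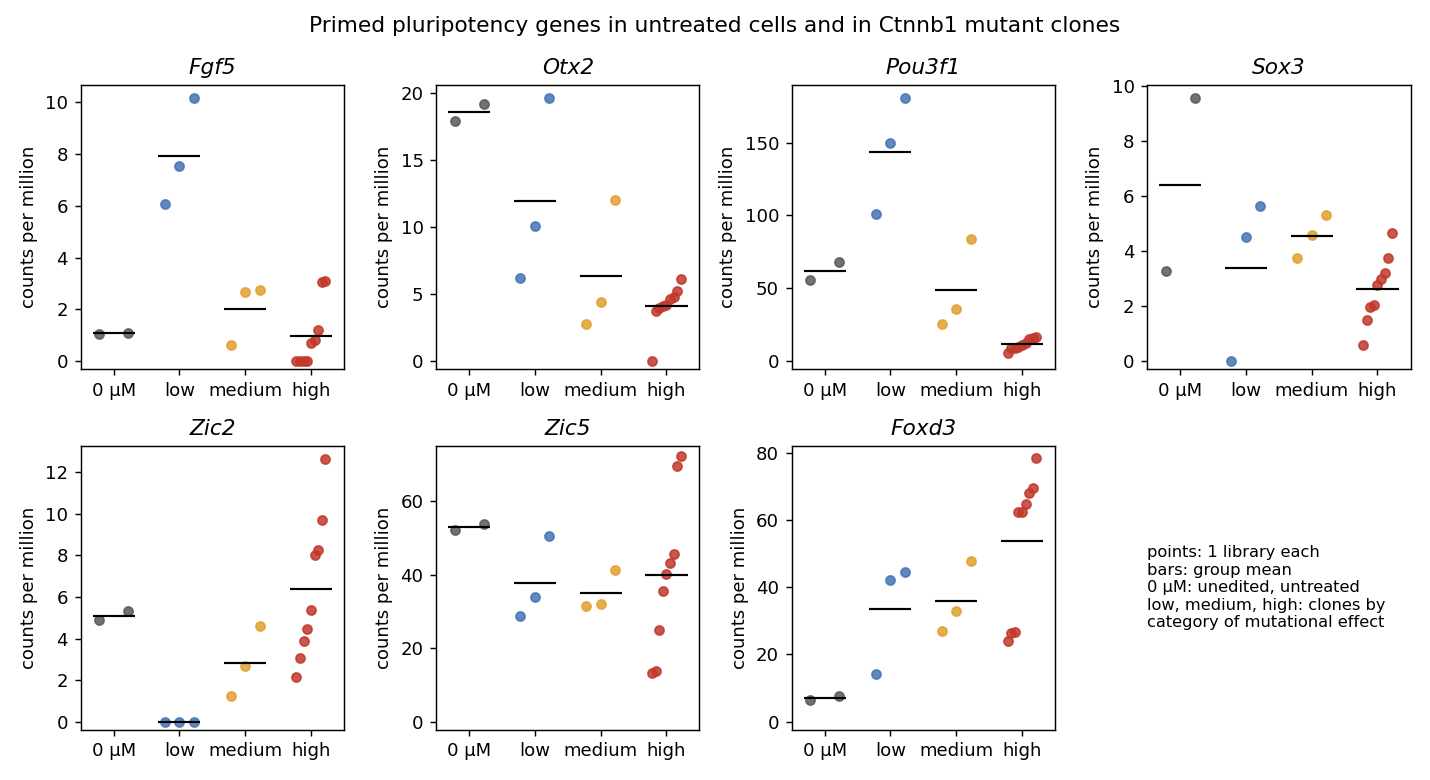
CPM of each member (y axis) in untreated unedited cells (0 µM, 2 libraries) and in the low (3), medium (3) and high (9) MES clones, with each library as a point and the group mean as a bar. Pou3f1 steps down from 101 CPM or more in low clones to 16.3 CPM or less in high clones, Zic2 is at 0 in the 3 low clones, and every clone's Foxd3 lies above both untreated libraries.

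The S37F clones lay close together in Zic5 and Foxd3, and the T41I clones far apart. In the S37F clones G1 and H2, Zic5 was 13.3 and 13.9 CPM and Foxd3 26.6 and 24.0 CPM, and in T41I clone A6 they were 24.8 and 26.4 CPM. These 3 had the lowest values of both genes among the high clones, and also of Zic2, at 3.07, 2.14 and 3.88 CPM. T41I clone B9, with the same mutation as A6, had 69.6 CPM of Zic5 and 69.6 CPM of Foxd3, and the counting intervals of the 2 clones did not overlap for either gene. Between clones of a mutation the SD of log2(CPM + 1) was 0.607 for Zic5 against 0.672 over all clones, and 0.509 against 0.708 for Foxd3. These values rest on the T41I pair: without it, the SD over the other 3 pairs was 0.374 for Zic5 and 0.185 for Foxd3.

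**Figure D3:**
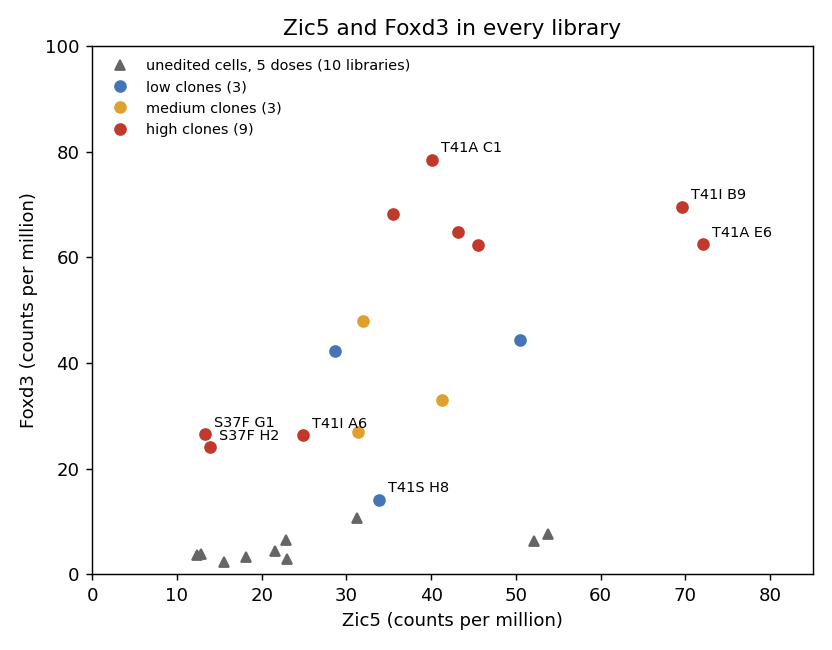
Foxd3 (y axis) against Zic5 (x axis), both in CPM, in all 25 libraries; triangles are unedited cells at 5 doses and circles are clones by category, with selected clones named. All 15 clones lie at 14.1 CPM of Foxd3 or more and all unedited libraries at 10.7 CPM or less, and the S37F clones and T41I A6 lie at the lower left of the high clones.

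Next, the clones were set against unedited cells, to see which members differ from the untreated state at either end of the MES range. The low clones carried more Fgf5, Pou3f1 and Foxd3 than untreated cells, whereas the high clones carried less Otx2 and Pou3f1 and more Foxd3. Foxd3 was 33.6 ± 16.9 CPM (SD, n = 3) in low and 53.6 ± 21.5 CPM (SD, n = 9) in high clones against 6.99 ± 0.870 CPM (SD, n = 2) untreated.

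Against 0 µM, Pou3f1 was 2.33-fold higher in low clones (95% interval 1.52 to 3.56, edgeR adjusted p = 0.00234). Fgf5 rose by 2.85 on the log2 scale in low clones (SE 0.941, adjusted p = 0.0210), with 26 counts against 3 and a ratio of pooled levels of 8.23 (exact counting interval 2.52 to 42.5). This call was lost under DESeq2 (adjusted p = 0.113) and without either untreated library (0.183 and 0.0878), and Fgf5 passed the filter only through 2 low clones. Foxd3 rose by 1.98 (SE 0.615, adjusted p = 0.0136), a call lost without 0 µM replicate 1 (0.107), 0 µM replicate 2 (0.0613) or the S45C clone (0.0560). Zic2 was lower in low clones, with a mean of 5.10 CPM untreated that was 4.98-fold the limit of the pooled low clones (adjusted p = 0.00416). The separate limits of the S45C and T41N clones, 4.53 and 6.05 CPM, lay near that mean. Otx2 (-0.79, adjusted p = 0.263) and Zic5 (-0.57, adjusted p = 0.336) did not pass. Over all 11375 genes of this fit, 17.1% rose and 15.4% fell. Fgf5 is not read against these shares, since low clones alone brought it into the test.

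In the high clones, Pou3f1 was 5.24-fold lower than at 0 µM (95% interval 3.55 to 7.74, edgeR adjusted p = 1.74e-07) and Otx2 4.43-fold lower (2.40 to 8.19, adjusted p = 0.000372). Foxd3 was higher by 2.91 on the log2 scale (SE 0.509, adjusted p = 6.82e-05), and every clone of any category exceeded all 10 unedited libraries. Fgf5, Zic2 and Zic5 did not pass (adjusted p = 0.848, 0.690 and 0.375). Over all genes, 16.1% rose and 17.9% fell in this comparison. Otx2 is not read against these shares, since it was over the filter in both untreated libraries but in no high clone. The clones also differed from every unedited library in mitochondrial share; its part in the Foxd3 difference cannot be told apart from that of the clones.

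The strongest mutations and the highest doses were then compared directly. Both had low Pou3f1, at 11.6 ± 3.60 CPM (SD, n = 9) in high clones and 14.9 ± 3.27 CPM (SD, n = 4) at 7.5 and 10 µM, and the difference was -0.30 on the log2 scale with an interval of -0.956 to 0.357 (edgeR adjusted p = 0.461). The factors Foxd3, Otx2, Zic2 and Zic5 were higher in the clones. Foxd3 was 14.7-fold higher (95% interval 7.66 to 28.3, adjusted p = 8.48e-08), Otx2 8.40-fold (2.47 to 28.6, adjusted p = 0.00444), Zic2 5.77-fold (2.25 to 14.8, adjusted p = 0.00257) and Zic5 2.68-fold (1.61 to 4.47, adjusted p = 0.00172). Over all genes, 23.4% rose and 23.7% fell. Zic2 and Foxd3 are not read against these shares. Zic2 passed the filter through 4 high clones alone, and the top doses held 6 of its counts in all. Foxd3 was over the filter in every clone but in no library at 7.5 or 10 µM. The calls of Zic2 and Zic5 were lost without 10 µM replicate 2 (adjusted p = 0.0547 and 0.0838), where Zic2 was at 3.97 on the log2 scale. Otx2 had no count in the other 3 libraries at these doses, and without replicate 2 its fitted value was 5.41 (adjusted p = 0.0136), which is no bound. Fgf5 had no count in the 4 libraries at 7.5 and 10 µM and 11 counts over the 9 high clones, and did not pass (adjusted p = 0.0829). Axin2 was lower in the high clones than at these doses, by -0.96 on the log2 scale (adjusted p = 2.90e-05).

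**Figure D4:**
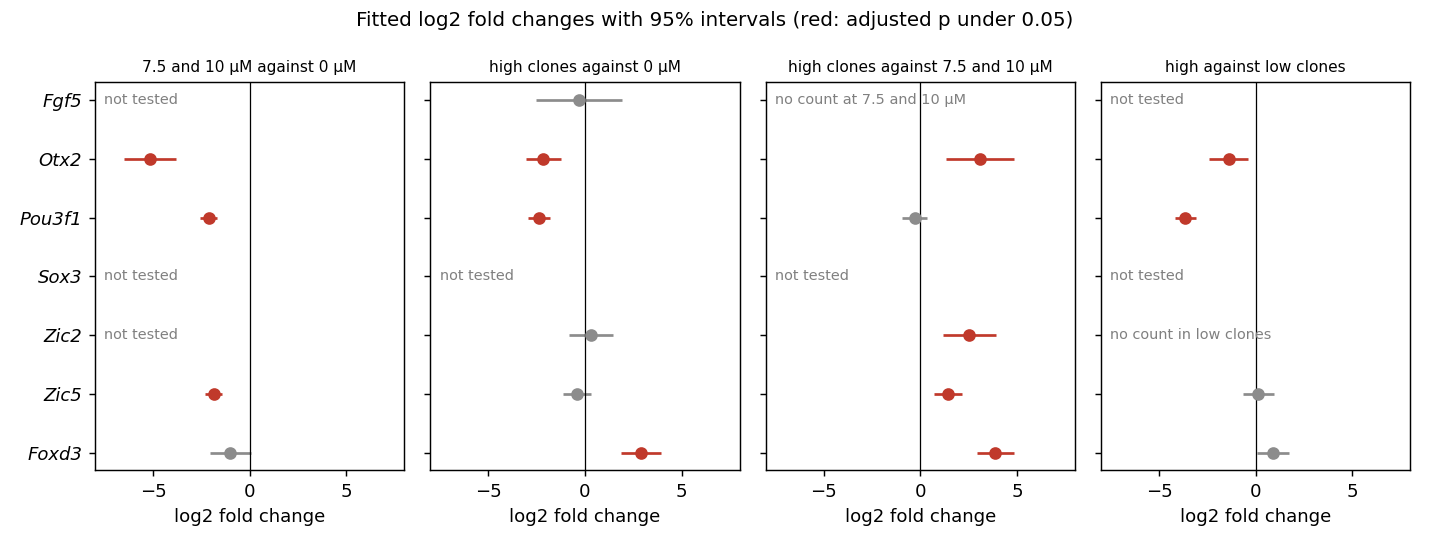
Fitted log2 fold changes (x axis) of the members (y axis) in 4 comparisons, with 95% intervals as bars; red points passed an adjusted p of 0.05, and members with no test, or against a group with no count, carry a note in place of a point. Pou3f1 lies at -2.12 at the top doses and -2.39 in high clones, both against 0 µM, while Foxd3 lies at -0.99 and 2.91.

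Ordered by mean level over the 5 doses and 3 categories, Pou3f1 ran from 5 µM (11.4 CPM), high clones (11.6), 10 µM (12.2) and 7.5 µM (17.6) through 2.5 µM (32.3), medium clones (48.4) and 0 µM (61.6) to the low clones (144 CPM). Of the 7 neighbouring pairs in this order, 4 overlapped in range; the gaps lay between 10 and 7.5 µM, between 7.5 and 2.5 µM and between 0 µM and the low clones. Zic5 ran from 7.5 µM (13.9 CPM) to 0 µM (53.0 CPM), with the 3 categories between 2.5 µM and 0 µM and 5 of 7 pairs overlapping. Foxd3 had 6 overlapping pairs, and its gap lay between 0 µM (6.99 CPM) and the low clones (33.6 CPM). Fgf5 had its gap between the medium (2.01 CPM) and low clones (7.92 CPM), and Zic2 between 2.5 µM (3.30 CPM) and 0 µM (5.10 CPM). For Otx2 and Sox3 all 7 neighbouring pairs overlapped.

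The other genes of these states were read from lists chosen by name. Among 13 other formative and primed genes, 6 fell and 2 rose with dose (median slope -0.05 per µM, against 0.000844 over all genes tested), and 8 of 12 tested fell and 0 rose from low to high clones (median -1.34, against 0.00709). By dose, Lef1, a nuclear partner of β-catenin, rose (0.24 per µM, adjusted p = 8.24e-06) and Utf1, a chromatin factor of pluripotent cells, fell (-0.18, adjusted p = 2.98e-08). From low to high clones, among those averaging 20 CPM or more, the kinase gene Pim2 (-2.69, adjusted p = 7.22e-09) and the SoxC factors Sox11 (-2.32, adjusted p = 5.99e-08) and Sox4 (-1.82, adjusted p = 2.11e-08) fell most. Lef1 thus went up with dose and down from low to high clones (-0.97, adjusted p = 0.0150). So did Sox11, the other gene of this list that rose with dose (0.08 per µM, edgeR adjusted p = 0.00554).

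The naive pluripotency genes gave different counts with dose and among the clones, a difference that was not tested. In the slope on dose, 3 of 11 tested rose and 5 fell (median -0.05 per µM), with Dppa3 at -0.14 (adjusted p = 0.000213), Nr0b1 at -0.09 (0.000439) and Tbx3 at 0.11 (0.000653). At 2.5 µM, with dose as a factor, 3 of 12 rose and 1 fell by edgeR. The 12 genes summed to 2507 to 2642 CPM untreated, 3018 to 3119 CPM at 2.5 µM and 2791 to 2832 CPM at 10 µM. From low to high clones, 9 of 12 rose and 0 fell (median 1.12), led by the transcription factor genes Tbx3 (2.52, adjusted p = 5.39e-08), Tfcp2l1 (2.20, 7.41e-09) and Klf4 (1.95, 4.57e-08). Tbx3 is among the β-catenin targets that the study picked from these samples, so it is not independent evidence. Of the FGF and ERK pathway genes, 4 of 10 rose and 1 fell with dose, with Fgf4 at -0.13 (adjusted p = 2.52e-07), Etv4, also among the targets the study picked, at 0.12 (0.000803) and Spry4 at 0.09 (0.00862), and 4 of 11 rose and 3 fell from low to high, with Dusp4 at -1.79 (2.00e-05), Spry4 at 1.30 (0.00185) and Spry2 at 1.05 (3.05e-05). The core ES cell genes gave 4 falls among 6 with dose (Dppa4 -0.07, Tdgf1 -0.06 and Lin28a -0.06, adjusted p = 0.00495, 0.000314 and 0.00862) and 1 rise from low to high, Tdgf1 (0.78, adjusted p = 0.000276).

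Markers of other cell types also changed with dose or among the clones, not all in the members' direction, and are given for that reason. The 10 neural markers summed to 155 to 245 CPM in low, 105 to 142 CPM in medium and 23.8 to 98.5 CPM in high clones, against 91.3 to 93.6 CPM untreated and 44.4 to 68.6 CPM under CHIR99021. They were highest in the low clones, as was Pou3f1. All 4 tested fell from low to high clones, with Nes at -3.45 (adjusted p = 3.70e-08) and Tubb3 at -1.38 (0.00288), and Tubb3 was the 1 of 3 tested in the slope on dose that fell (-0.15, 0.000338). Of the defining neural genes, Sox1 stood at 0 to 11.2 CPM and was highest in T41A clone E6, a high clone. In the low clones S45C, T41N and T41S it stood at 3.02, 0 and 1.695 CPM, each at or under the counting limit. Sox1 thus did not follow the sum. Pax6 stood at 17.4 and 23.4 CPM untreated and at 0 to 3.29 CPM in the 8 treated libraries, at 3.39 to 22.6 CPM in low clones and at 0 to 7.58 CPM in high clones. It was not tested in the slope; with dose as a factor it changed by -3.62 at 2.5 µM (edgeR adjusted p = 0.00102) and by -5.72 at 7.5 and 10 µM (2.13e-07), and from low to high clones by -1.82 (0.0288). Pax6 thus fell with Otx2 at the lowest dose, and like Otx2 it entered the dose test through its untreated libraries alone. The 8 mesendoderm markers summed to 18.5 to 20.2 CPM untreated and 146 to 173 CPM at 10 µM, with 2 of 3 tested rising with dose, among them T (0.27 per µM, adjusted p = 3.79e-06), and to 24.2 to 81.9 CPM in low and 27.2 to 129 CPM in high clones. From low to high clones 0 of their 3 tested genes passed by edgeR, and 1 had an unadjusted p under 0.05. Within this sum, Sox17 stood at 0 to 60.2 CPM in high clones, highest in S37Y, and at 0 to 6.21 CPM in low clones. In the unedited libraries Sox17 was at 3.27 CPM or less. The 7 primitive endoderm markers summed to 112 to 120 CPM untreated, 246 to 255 CPM at 10 µM, 142 to 350 CPM in low clones and 124 to 918 CPM in high clones, where S37A (620 CPM) and S37Y (918 CPM) were highest; with dose both genes tested rose, Lama1 (0.14, adjusted p = 4.76e-06) and Col4a1 (0.08, 0.00432), and from low to high 2 of 6 rose, among them Lama1 (1.75, 0.00283). The part of these cells in the members' changes was not tested.

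**Figure D5:**
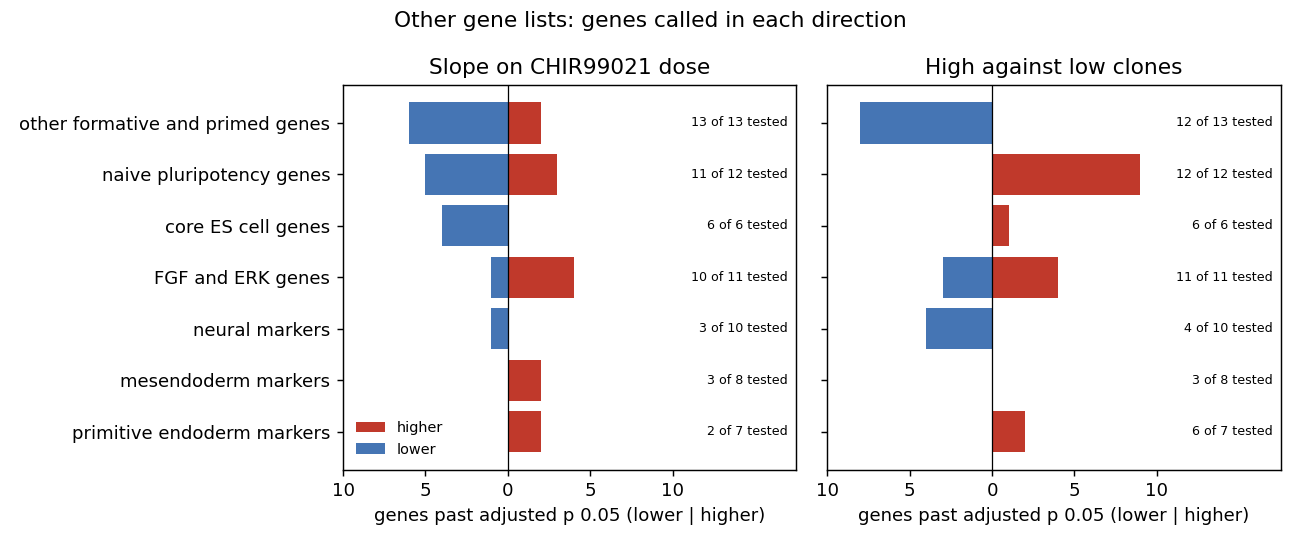
Number of genes (x axis) of each other list (y axis) that passed an adjusted p of 0.05, to the right for higher and to the left for lower, in the slope on CHIR99021 dose and in high against low clones, with the number tested at the right edge. The naive genes split 3 up and 5 down with dose but 9 up and 0 down from low to high clones, while the other formative and primed genes have 6 and 8 falls.

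Finally, the genes whose levels were most like those of a member over the 25 libraries were listed among 7086 genes, for members with a mean of at least 20 CPM. For Pou3f1 these were Car2 (carbonic anhydrase, Pearson's r of log2 CPM 0.929), Pim2 (0.888) and Igfbp3 (0.872). For Zic5 they were Ccdc117 (0.814), Atp2a2 (0.789) and U2surp (0.786), and for Foxd3 Hsph1 (0.971), Srsf2 (0.967) and Jarid2 (0.965). The values for Foxd3 rest on 2 separate clusters, the clones and the unedited libraries, which also differed in mitochondrial share.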

How the data were processed

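The authors trimmed reads with Cutadapt, checked them with FastQC (version 0.73), extracted UMIs, removed ribosomal reads with SortMeRNA, aligned to mm10 with STAR, removed duplicate molecules with UMI-tools and Picard, and counted genes with featureCounts (version 2.0.1). The deposited table holds these whole-number counts per gene without normalization, so the values are the counts left after both removals of duplicates. Of 48440 identifiers, 48058 were matched to a symbol; 24146 genes had no count. Groups came from the labels, and MES values from the study's source data.

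The counts were tested with edgeR 4.0.16 in R 4.3.3 (quasi-likelihood test, TMM, filterByExpr with a minimum count of 10, Benjamini-Hochberg over all genes of a fit, threshold 0.05). The dose fits used the 10 unedited libraries, the MES and category fits the 15 clones, and the comparisons of clones with unedited cells all 25 libraries. Fitted fold changes carry edgeR's default prior count. The scripts were tested on simulated data. Alternatives were DESeq2 1.42.0, RLE normalization, no filter, thinning to the smallest library, a replicate block, a mitochondrial share block, the rank of MES, clones of a mutation summed and leaving out each library.

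The members and lists were chosen with earlier results of these data known. All members are described in every comparison. Of each other list, at most 3 genes are named, those with the largest change among genes past the threshold with a mean of at least 20 CPM, in the slope on dose and in high against low clones; 1 gene that this rule names is not reported here. Lef1 in high against low clones, Sox1, Pax6 and Pou5f1 were added after their values were seen. Depth was 306157 to 2083398 counts a library. Each library of a group was counted as 1 replicate. Such libraries differed by more than sampling noise (chi-square per degree of freedom 1.33 to 3.66), which does not show that they were separate cultures. The value was lowest at 7.5 µM (1.33), the dose with no library of low mitochondrial share.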

Additional observations from a re-analysis of the deposited data

Results flagged for a closer look

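Otx2 in S37C clone G12 stood apart from the other high clones. It had a count of 0 there, in a library of 1251038 counts, while the other 8 high clones lay between 3.72 and 6.14 CPM. The gap to the nearest clone was 0.606 of the whole range of the 9 clones, above Dixon's critical value of 0.493. With that clone set at its counting limit of 2.40 CPM in place of 0, the gap was 0.354 of the range, below the critical value, so the separation is not clear of counting error. The check was made at both ends of the range for the 7 members, and chance flags about 1 in 20 groups. Pou3f1 was also lowest in this clone, at 5.60 CPM, without passing the same criterion.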

How the results depend on the processing

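All values here are counts of genes called or log2 changes by edgeR unless DESeq2 is named. The members' low counts limit what could be tested, and thinning every library to the smallest one lowered the number of calls. Thinned, no member could be tested in the slope on dose, 0 of 2 tested were called at 2.5 µM, 1 in high against low, 2 in low against 0 µM and 2 in high against the top doses. The genes called over all fell to 291 (slope on dose), 45 (2.5 µM), 471 (7.5 and 10 µM), 1513 (MES), 1886 (high against low), 598 (medium against low), 1578 (low against 0 µM), 1381 (high against 0 µM) and 2645 (high against the top doses). DESeq2 called 86 genes at 2.5 µM, with no adjusted p for any member there, and 608 at the top doses, and 2 members on MES. Without a filter, 2 members were called on MES and 5 in high against low, and with clones of a mutation summed 3 on MES. The counts of members called in this section are not set against shares of all genes and are not read as results about the members. The mitochondrial share block called 545 genes at 2.5 µM.

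With 1 library left out at a time, the genes called ranged from 527 to 1325 (slope on dose), 71 to 273 (2.5 µM), 681 to 1801 (top doses), 1199 to 2388 (MES), 1653 to 3264 (high against low), 276 to 1433 (medium against low), 1998 to 3795 (low against 0 µM), 1626 to 4109 (high against 0 µM) and 3177 to 5531 (high against the top doses). The lowest of these came without 0 µM replicate 1 in the slope on dose, at 2.5 µM, at the top doses and in both comparisons with 0 µM, without the T41S clone in the 3 comparisons among clones, and without 10 µM replicate 2 in the last. The members called ranged from 0 to 3 at 2.5 µM, 1 to 2 on MES (2 without either S37F clone), 2 to 4 in high against low, 2 to 4 in low against 0 µM and 2 to 4 in high against the top doses.

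Of 943 values of single members under these settings, 902 kept their direction and their side of the threshold, 22 lost the call, 7 gained it and 12 changed sign, none of which had passed. Zic5 on MES became 0.00306 with the rank of MES and 0.013 with clones summed, and ranged from -0.14 to 0.11 without single clones. Thinned, Zic5 became 0.057 and Foxd3 -0.34 in medium against low, and Pou3f1 0.36 in high against the top doses. Without single libraries, Foxd3 at 2.5 µM ranged from -1.23 to 0.57, Zic5 from -0.00234 to 0.32 in high against low and from -0.22 to 0.11 in medium against low, and Foxd3 from -0.31 to 0.54 in medium against low. The cause was not tested.

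Replicate numbers did not pair the libraries: deviations from the group means of same-numbered libraries correlated at -0.211 to 0.171 over the doses and -0.161 to 0.121 over the mutations. The pairs among 2.5, 5 and 10 µM were at 0.136 to 0.171 and 0 µM against these at -0.211 to -0.168; the library of low mitochondrial share is replicate 1 at those 3 doses and replicate 2 at 0 µM. With the replicate block, 5 members were called in high against the top doses in place of 4, Fgf5 being added (3.80, adjusted p = 0.0355), and the counts of members called were otherwise as without the block.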
